A study of Mus musculus with 6 samples.

Results

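NF-kappaB is a family of dimeric transcription factors built from the subunits encoded by Rela, Relb, Rel, Nfkb1 and Nfkb2. In resting cells the dimers are held in the cytoplasm by inhibitors of the IkB family, encoded among others by Nfkbia, Nfkbib and Nfkbie. Inflammatory signals activate the IkB kinase (IKK), of which Ikbkb encodes a catalytic and Ikbkg the scaffold subunit; the kinase marks the inhibitors for degradation, and the freed dimers enter the nucleus. Nfkbia is itself switched on by NF-kappaB, which closes a negative feedback loop. In neurons the family is known for roles in survival, plasticity and the response to injury.

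The members described here are all probe sets that the platform annotation assigns to 10 listed genes: 5 subunits, 3 inhibitors and 2 kinase subunits. The array gave 25 such probe sets for 9 of the genes, among 45037 probe sets and 18193 named genes in all. Rela, Relb and Rel had 1 probe set each, Nfkb2, Nfkbib and Nfkbie 2 each, Nfkbia and Ikbkb 5 each and Ikbkg 6. Nfkb1 was not analysed here, since no probe set bore its name. The genes were selected on measured values of these arrays: the group was proposed with the fall of Rela between the 2 conditions known. The differences of the members are therefore given as a description, and their adjusted p-values serve only to place them among all probe sets.

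The RNA came from CAD cells, which are mouse neuroblastoma cells with catecholaminergic features, and each group had 3 biological replicates. One group had received RIPmiR-124a-2, a plasmid from which miR-124a-2 is expressed, and the other the empty RI vector. MiR-124 is a microRNA abundant in brain, and microRNAs lower the output of messenger RNAs that pair with their seed. Both groups were the same line grown in the same medium with serum; the time from transfection to harvest and the share of transfected cells are not given in the sources used here.

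Array medians lay between 4.72 and 4.83 log2 units, and probe sets for the bacterial transcript TrpnX, used here as a floor, averaged 3.37 to 3.50. MiR-124a-2 plasmid replicates 1 and 2 and empty vector replicate 1 had narrower interquartile ranges (3.06 to 3.10) than the other 3 arrays (3.26 to 3.34). Mean poly-A control signal was 5.96 to 5.97 on plasmid replicate 1 and vector replicate 1, against 5.57 to 5.71 on the remaining 4 arrays. Reported miR-124 targets were lower with the plasmid, the direction the labels call for. Ptbp1, a splicing repressor, had a log2 fold change of -1.24 and Ctdsp1, a phosphatase of the REST pathway, one of -1.38. Vamp3, a vesicle SNARE, had -1.88 in a probe set with the suffix x, whose probes can match other transcripts. These targets were named with earlier results of these data known, so they are no independent check of the labels. The 8 measured markers of catecholaminergic neuroblastoma, which include general neuronal genes, averaged 9.02 to 9.14 per plasmid array and 8.74 to 8.86 per vector array. All 8 had positive log2 fold changes and none passed the test. Macrophage and microglia markers (7 of 7 measured), cells in which NF-kappaB is highly active, averaged 3.98 to 4.33 per plasmid array and 3.98 to 4.16 per vector array. By group means, 6 of these 7 lay between 3.49 and 4.35 in the plasmid group and between 3.46 and 4.22 in the vector group, with Tyrobp the highest of them. Csf1r stood well above the bacterial control, at 6.21 in the plasmid group and 6.16 in the vector group. None of the 7 passed the test, and their part in the results was not tested.

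Promoter sequences are shown for the members whose promoter held the motif searched and for Rela, since several genes of the family are textbook targets of NF-kappaB itself. The motif searched was a form of the kappaB site, GGGNNTTTCC, on either strand (GGAAANNCCC on the other). RefSeq promoters (GRCm38.p6, 250 bases before to 50 after a start) were held for 7 of the 10 genes. The motif stood in those of Nfkbia, Rel and Nfkb2, and no match was found in those of Rela, Nfkbib, Nfkbie and Ikbkg. Of all 32851 promoters listed, 1.63% held it. Capitals mark the match, and each sequence runs 5′ to 3′ on the strand of its gene.
Nfkbia, minus strand, chr12:55492648-55492897, the 250 bases before the start, with the match 29 to 20 bases before it: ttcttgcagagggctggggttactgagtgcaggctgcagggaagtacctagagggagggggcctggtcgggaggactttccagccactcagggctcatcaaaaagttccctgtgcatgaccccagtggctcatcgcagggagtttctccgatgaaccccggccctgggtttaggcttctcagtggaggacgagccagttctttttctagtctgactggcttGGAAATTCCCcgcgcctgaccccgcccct
Rel, minus strand, chr11:23771026-23771085, with the match 91 to 82 bases before the start: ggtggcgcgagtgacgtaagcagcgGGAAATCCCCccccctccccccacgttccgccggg
Nfkb2, plus strand, chr19:46304716-46304745: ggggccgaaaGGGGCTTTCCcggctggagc
Nfkb2, plus strand, chr19:46305695-46305724: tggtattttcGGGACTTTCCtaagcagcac
Rela, plus strand, chr19:5637291-5637441, with no match: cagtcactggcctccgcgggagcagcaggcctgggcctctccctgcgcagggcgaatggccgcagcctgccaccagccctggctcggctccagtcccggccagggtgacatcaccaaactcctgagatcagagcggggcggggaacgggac

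Among the subunits, Rela stood apart. Rela encodes p65, the subunit that carries the main transactivation domain of the canonical dimer, and lies at chr19:5637442-5648134 (GRCm38.p6). Its probe set 1419536_a_at had log2 signals of 7.46, 7.50 and 8.05 in miR-124a-2 plasmid replicates 1, 2 and 3, against 8.88, 9.04 and 9.19 in empty vector replicates 1, 2 and 3. Every plasmid array was below every vector array, and the highest of the plasmid arrays was replicate 3. The means were 7.67 ± 0.33 in the plasmid group and 9.03 ± 0.15 in the vector group (SD, n = 3 each), a log2 fold change of -1.36 (SE 0.17), or 2.57-fold lower. In bulk RNA, fewer cells with the transcript and less of it per cell cannot be told apart.

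Set among all 45037 probe sets, the Rela value was the 16th lowest log2 fold change, and it was the single member probe set that limma called (adjusted p = 0.0264 over all probe sets). By the same rule 0.209% of all probe sets were called lower and 0.0600% higher, beside 1 lower and 0 higher of the 25 members. Since Rela's fall was known when the members were chosen, nothing is read from that count. Rela fell by 1.40 on the log2 scale within the narrow arrays and by 1.06 within the wide ones, each resting on 1 array of one group. The call was lost after median centring (-1.37, adjusted p = 0.0618). It was also lost without plasmid replicate 1 (-1.26, adjusted p = 0.125), plasmid replicate 2 (-1.28, adjusted p = 0.116), vector replicate 1 (-1.44, adjusted p = 0.0757), vector replicate 2 (-1.36, adjusted p = 0.208) or vector replicate 3 (-1.29, adjusted p = 0.181). It was kept without plasmid replicate 3 (-1.55, adjusted p = 0.00887). Those 5 refits called 0 or 12 of all probe sets. Without the replicate 1 arrays of both groups, Rela had -1.34 (adjusted p = 0.265).

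**Figure D1:**
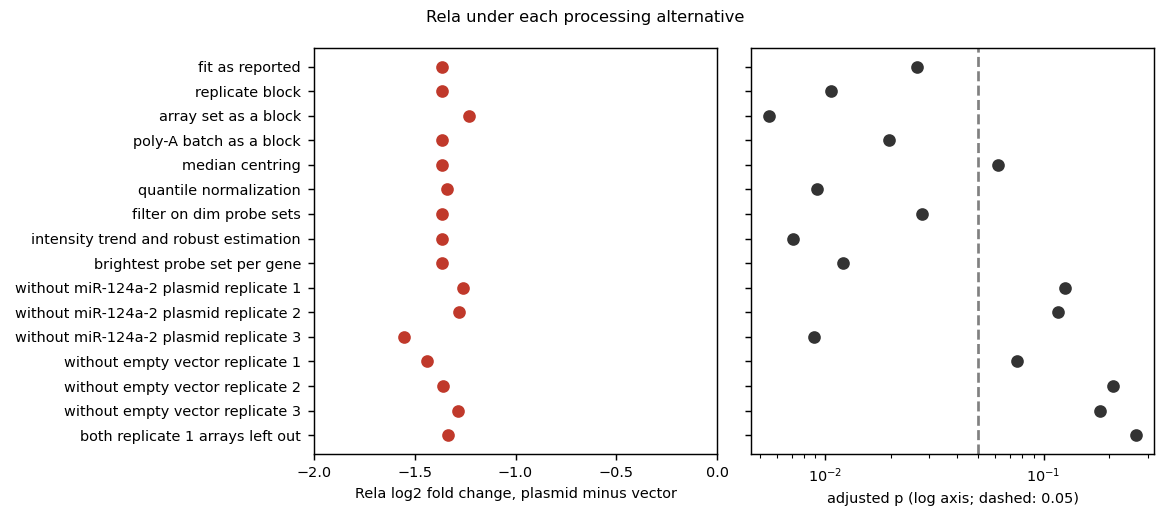
Rela log2 fold change (left, plasmid minus vector) and its limma adjusted p (right, log axis) in the reported fit and under each alternative, 1 point per setting. The fold change stays between -1.55 and -1.23, while the adjusted p lies between 0.00553 and 0.265 on both sides of the dashed threshold of 0.05.

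None of the other measured subunits was called. Relb, the partner of the non-canonical pathway, had log2 signals of 5.97, 5.93 and 5.66 in the plasmid arrays, against 5.93, 5.69 and 5.77 in the vector arrays. Rel, which encodes c-Rel and is best known from lymphocytes, had 5.36, 5.22 and 5.61 in the plasmid arrays, against 4.99, 5.38 and 5.46 in the vector arrays. In both genes the groups overlapped. The log2 fold change was 0.06 for Relb (95% interval -0.21 to 0.34) and 0.12 for Rel (-0.24 to 0.47), so neither interval reached a 2-fold change in either direction.

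Nfkb2 encodes p100, which is cut to p52 and in its uncut form acts as an inhibitor. Its probe set 1425902_a_at had 7.21, 7.28 and 6.96 in the plasmid arrays, against 7.31, 7.19 and 7.05 in the vector arrays, with overlapping groups. Probe set 1429128_x_at had 6.94, 6.90 and 7.00 in the plasmid arrays, against 7.23, 7.21 and 7.07 in the vector arrays, where the groups did not overlap. The log2 fold changes were -0.03 (SE 0.12) and -0.22 (SE 0.09), and neither was called (adjusted p = 0.986 and 0.586). The suffix x marks a probe set whose probes can match other transcripts, so the second value is the less certain of the pair.

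**Figure D2:**
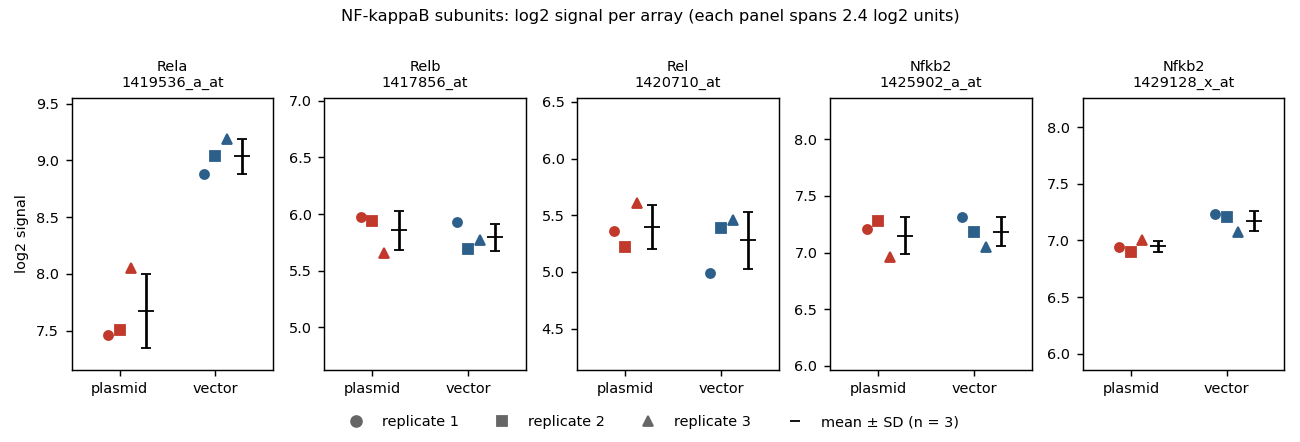
Log2 signal of each subunit probe set per array, with the miR-124a-2 plasmid arrays left and the empty vector arrays right; symbols mark replicates, bars the mean ± SD (n = 3), and every panel spans the same 2.4 log2 units. Rela lies between 7.46 and 8.05 with the plasmid and between 8.88 and 9.19 with the vector, while the log2 fold changes of Relb, Rel and Nfkb2 lie between -0.22 and 0.12.

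Nfkbia encodes IkBalpha, the main feedback inhibitor, and lies at chr12:55489409-55492647 (GRCm38.p6). All 5 of its probe sets had lower means with the plasmid, with log2 fold changes of -0.30 to -0.22, and none was called. The brightest, 1420088_at, had 11.19, 10.55 and 10.59 in the plasmid arrays, against 11.62, 10.72 and 10.80 in the vector arrays. The replicate 1 arrays of both groups were the high ones, and the groups overlapped. Its log2 fold change of -0.27 (SE 0.26, 95% interval -0.87 to 0.34) was of the size of the spread between replicates. Without empty vector replicate 1 it was 0.02, while the other 4 Nfkbia probe sets had -0.31 to -0.13. That spread includes the replicate 1 excess of both groups. Taken by replicate number, the differences of 1420088_at were -0.42, -0.17 and -0.21. The 15 such differences of the 5 Nfkbia probe sets lay between -0.42 and -0.02, all with the plasmid lower. They are repeated readings of 1 gene on the same arrays, not 15 independent comparisons. The reported fit did not use the numbers as pairs. With the replicate number as a block, none of the 5 was called (limma adjusted p = 0.206 to 0.402).

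Probe set 1448306_at was also highest in the replicate 1 arrays, with 10.04, 9.38 and 9.41 in the plasmid arrays, against 10.14, 9.80 and 9.70 in the vector arrays. In the 4 bright Nfkbia probe sets, replicate 1 exceeded the mean of replicates 2 and 3 by 0.38 to 0.68 in the plasmid group and by 0.09 to 0.86 in the vector group. The poly-A controls were high in those same replicate 1 arrays, and their part in the Nfkbia values was not tested. The dimmest probe set, 1420089_at, did not follow this: it had 6.32, 6.55 and 6.57 in the plasmid arrays, against 6.73, 6.88 and 6.69 in the vector arrays. There the groups did not overlap, and the difference was -0.29 on the log2 scale (SE 0.11), with an adjusted p of 0.498. Without the replicate 1 arrays of both groups the 5 Nfkbia probe sets had -0.37 to -0.19: the difference was nearer 0 in 1420089_at (-0.23) and 1420088_at (-0.19), and further from 0 in 1438157_s_at (-0.37), 1448306_at (-0.35) and 1449731_s_at (-0.32).

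**Figure D3:**
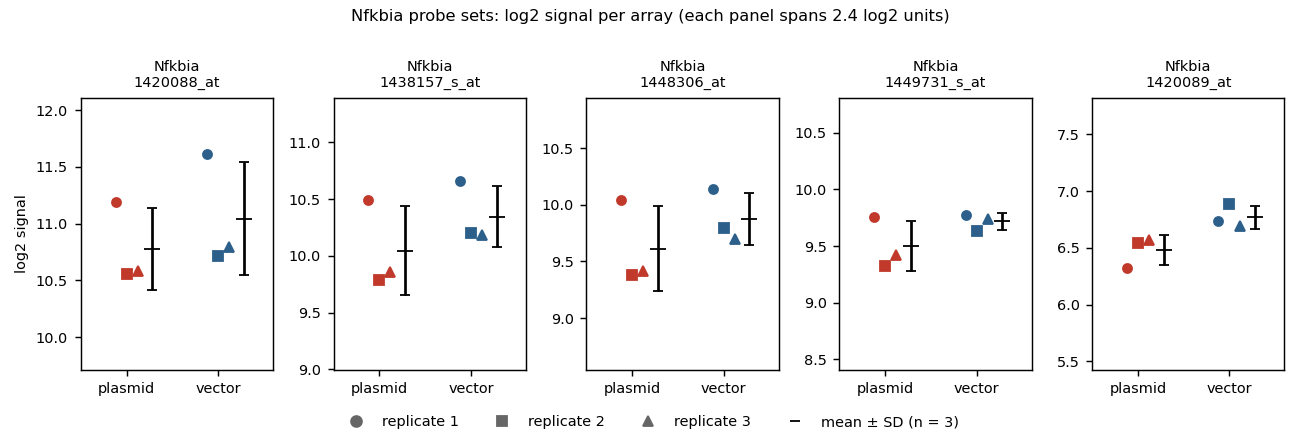
Log2 signal of the 5 Nfkbia probe sets per array, with miR-124a-2 plasmid arrays left and empty vector arrays right; symbols mark replicates, bars the mean ± SD (n = 3), and every panel spans the same 2.4 log2 units. Replicate 1 is the highest array of both groups in the 4 bright probe sets, and every plasmid mean lies 0.22 to 0.30 below its vector mean.

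The other inhibitors had smaller differences, none of them called. Nfkbib, which encodes IkBbeta, had 8.93, 8.84 and 8.78 in the plasmid arrays of probe set 1421266_s_at, against 8.98, 8.90 and 8.89 in the vector arrays, a log2 fold change of -0.08 (95% interval -0.29 to 0.14). Its other probe set, 1446718_at, was dim, at 4.58, 3.74 and 3.88 in the plasmid arrays, against 4.28, 4.16 and 4.09 in the vector arrays. Nfkbie, which encodes IkBepsilon, had log2 fold changes of -0.02 in both probe sets, with 5.65, 5.62 and 5.73 in the plasmid arrays of 1431843_a_at, against 5.86, 5.76 and 5.44 in the vector arrays. The 9 inhibitor probe sets all had values below 0, with a median of -0.22, against 0.0023 over all probe sets; they come from 3 genes, and probe sets of 1 gene are not independent. Without plasmid replicate 2 the sign turned in the dim Nfkbib probe set (0.06) and in both of Nfkbie (0.005 and 0.02). Over the alternatives run, Nfkbie 1431843_a_at kept its sign in 11 of 15 and Nfkbie 1458299_s_at in 10 of 14. The dim Nfkbib probe set kept it in 12 of 13 and Nfkbia 1420088_at in 14 of 15. The other inhibitor probe sets kept theirs in every alternative. With the array set as a block 1 Nfkbie probe set stood at 0.00056.

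The kinase subunits showed no common direction. Ikbkb, the catalytic subunit of canonical signalling, had 8.18, 8.33 and 8.45 in the plasmid arrays of its brightest probe set 1426207_at, against 7.95, 8.22 and 8.27 in the vector arrays, a log2 fold change of 0.17 with overlapping groups. Probe set 1454184_a_at of the same gene had 5.47, 5.62 and 5.85 in the plasmid arrays, against 5.96, 5.96 and 5.82 in the vector arrays, a log2 fold change of -0.27. The 5 Ikbkb probe sets thus disagreed in sign, 2 above and 3 below 0, and none was called. Probe set 1445141_at, at 3.87, 3.62 and 3.36 in the plasmid arrays and 3.68, 3.74 and 3.63 in the vector arrays, lay close to the bacterial control.

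Ikbkg encodes NEMO, the scaffold that couples the kinase to ubiquitin chains. Its 6 probe sets had log2 fold changes of -0.04 to 0.20, 4 of them above 0. The largest was in 1454690_at, with 7.19, 6.98 and 7.14 in the plasmid arrays, against 6.74, 6.94 and 7.02 in the vector arrays. The groups of all 6 overlapped.

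Across the 25 member probe sets, 3 had groups that did not overlap with the plasmid lower (in Rela, Nfkb2 and Nfkbia) and 0 with the plasmid higher, where 6.97% and 6.28% of all probe sets did. The median member log2 fold change was -0.04. The 24 probe sets other than Rela had adjusted p-values of 0.498 to 0.993. Their 95% intervals, not adjusted for their number, ran from -0.87 (Nfkbia) to 0.53 (Ikbkg), so that all 24 lay within a 2-fold change and above the Rela estimate.

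**Figure D4:**
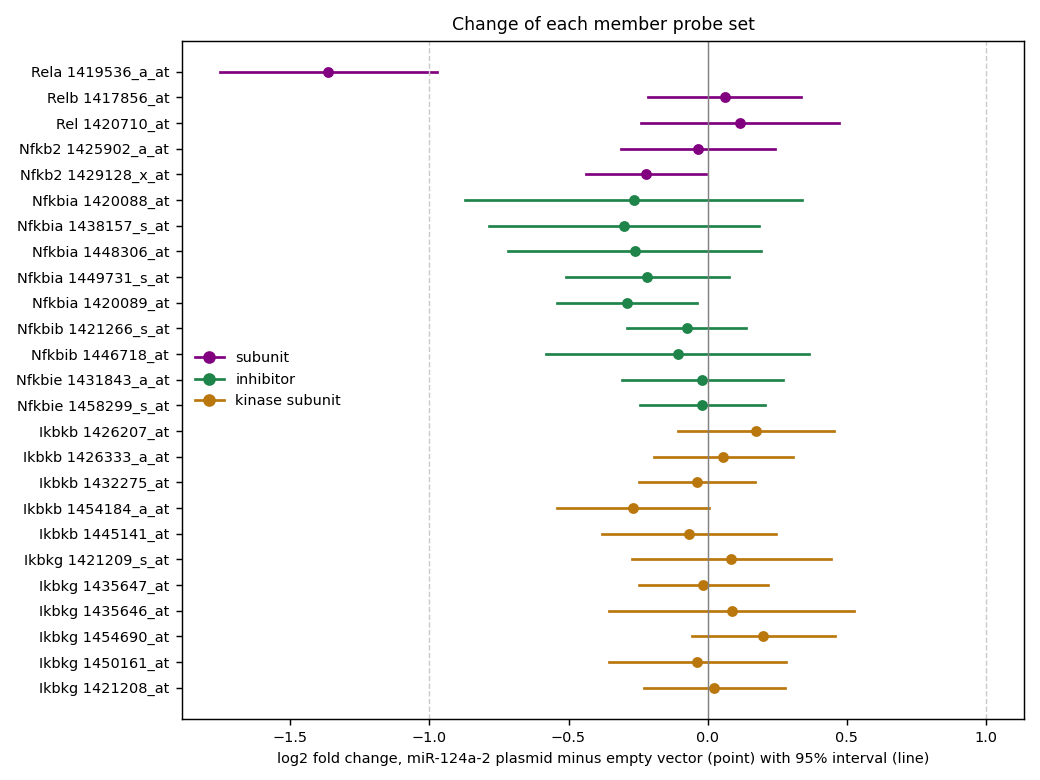
Log2 fold change of each member probe set (points) with its 95% interval from the limma fit (lines), miR-124a-2 plasmid minus empty vector, coloured by role; dashed lines mark a 2-fold change. Rela lies at -1.36 with an interval of -1.75 to -0.97, and the intervals of the other 24 probe sets stay between -0.87 and 0.53.

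Genes around the members were read from 6 lists of the pathway, each gene by its brightest probe set. Of 128 listed genes 120 were measured. At an unadjusted limma p under 0.05 stood 5 of the 120, beside 1927 of all 18193 genes. None of the 120 was called over all probe sets, where 0.335% of all genes were called lower and 0.0879% higher. None of the 273 probe sets of the 120 genes was called either. Groups did not overlap in 6 genes with the plasmid lower and 6 with the plasmid higher, where 7.76% and 8.50% of all genes did. The median log2 fold change was 0.0086, against 0.015 over all genes, and all 120 unadjusted 95% intervals lay within a 2-fold change, 95 of them within 0.5 log2 units of 0.

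Textbook targets of NF-kappaB are the readout nearest to the activity of the dimers. None of 37 was called higher or lower by limma. By brightest probe set, 14 had values above 0 and 23 below, with a median of -0.03 and a range of -0.31 to 0.20. Ccl2, a monocyte chemokine, had 5.68, 5.96 and 5.83 in the plasmid arrays, against 6.15, 6.23 and 6.02 in the vector arrays. Its groups did not overlap, with a difference of -0.31 (log2, SE 0.11) that was not called (adjusted p = 0.473). Mmp9, a matrix metalloprotease, had 5.75, 5.31 and 4.97 in the plasmid arrays, against 5.81, 5.60 and 5.45 in the vector arrays, with overlapping groups and -0.27 (adjusted p = 0.835). Leaving out single arrays gave -0.47 (without plasmid replicate 1) to -0.09 (without plasmid replicate 3). Of the 37 targets, 9 had a mean signal at or under the 40th percentile of all probe sets (4.27), where a further fall could hardly be measured.

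Of the 29 targets with a RefSeq promoter, 5 held the motif shown above. They were chosen here by those letters and not by their values. By brightest probe set, the chemokine genes Cxcl1 and Cxcl2 had log2 fold changes of -0.13 and -0.14. The cytokine gene Il6 had -0.01, the survival gene Bcl2l1 had 0.20 and B2m, the light chain of MHC class I, had 0.14. Cxcl2 (means of 3.46 with the plasmid and 3.60 with the vector) and Il6 (3.36 and 3.37) lay close to the bacterial control. A fall of these 2 genes could hardly be measured. The dimmer Cxcl1 probe sets were further from 0, at -0.39 and -0.51 (limma adjusted p = 0.532 and 0.39). The brightest Cxcl1 probe set has the suffix x, so its probes can match other transcripts. The dimmer probe sets of Bcl2l1 had 0.03 to 0.15 and that of B2m had 0.12. None of these probe sets was called. Over the whole array, 273 measured genes held the motif, with 0 called higher, 0 lower and a median log2 fold change of 0.01, the same to 2 decimals as that of the 14179 measured genes with a promoter and no match (11 higher, 54 lower).

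Upstream, 33 receptors and adaptors were measured and none passed. Irak2, a kinase of interleukin-1 signalling, had 6.81, 6.41 and 6.30 in the plasmid arrays, against 6.38, 6.10 and 5.84 in the vector arrays, a log2 fold change of 0.40 with overlapping groups (adjusted p = 0.614). Without plasmid replicate 1 it was 0.25. Ngfr, the p75 neurotrophin receptor, which can signal to NF-kappaB in neural cells, had 9.58, 9.57 and 9.61 in the plasmid arrays, against 9.70, 10.00 and 10.02 in the vector arrays. Its groups did not overlap, and the difference of -0.32 (log2, SE 0.11) was not called (adjusted p = 0.434).

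The machinery that destroys the inhibitors gave the lowest adjusted p among the pathway genes. Btrc, which encodes betaTrCP, the receptor of the ubiquitin ligase that recognises phosphorylated IkB, had 8.29, 8.22 and 8.28 in the plasmid arrays, against 7.90, 7.82 and 7.91 in the vector arrays. The groups did not overlap, with a log2 fold change of 0.39 (SE 0.09) and an adjusted p of 0.162. The other 4 Btrc probe sets had -0.10 to 0.19. Fbxw11, the paralog of Btrc, had 10.84, 10.77 and 11.07 in the plasmid arrays, against 10.63, 10.51 and 10.88 in the vector arrays, with overlapping groups and 0.22 (adjusted p = 0.767). That Fbxw11 probe set has the suffix x, so its probes can match other transcripts. The other 4 Fbxw11 probe sets had -0.18 to 0.11, and with the mean of probe sets per gene Fbxw11 had 0.03 and Btrc 0.10. None of the 11 genes of this list passed.

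No gene of the remaining lists was called. Of the 16 other IkB-family, IKK and core regulators, Nkiras2, a Ras-like binder of IkB, had a log2 fold change of 0.20, and Ikbke, a non-canonical kinase of the IKK family, had 0.17. Of the 9 brakes of IKK signalling, the deubiquitinase gene Cyld had 0.26, and Tnip2, which encodes a partner of A20, had 0.21 with groups that did not overlap. Of the 14 nuclear cofactors, Sirt1, which encodes a deacetylase of p65, had -0.32, and Ing4 had 0.25. Single arrays moved several of these values: without plasmid replicate 1 Ikbke had 0.02, without plasmid replicate 3 it had 0.31, and without plasmid replicate 2 Ing4 had 0.08 and Cyld 0.395. For these 6 genes limma gave adjusted p-values of 0.603 to 0.902.

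**Figure D5:**
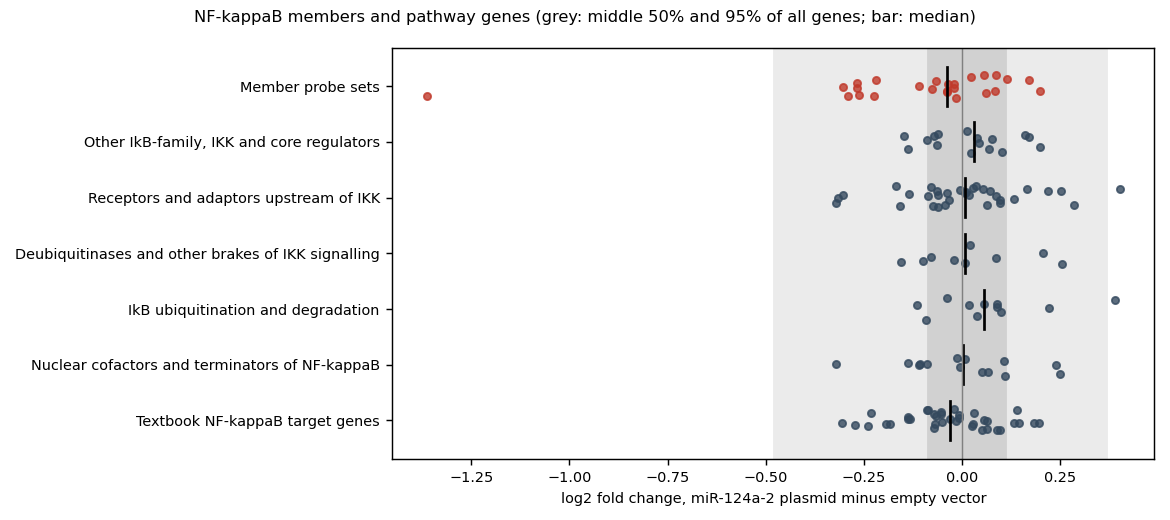
Log2 fold change (miR-124a-2 plasmid minus empty vector) of the 25 member probe sets and of the 120 pathway genes by list, 1 point each; bars mark medians, and the grey bands hold the middle 50% and 95% of all 18193 genes. Rela, at -1.36, is the 1 point left of the 95% band (-0.48 to 0.37), and 2 genes lie right of it, Irak2 at 0.40 and Btrc at 0.39.

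The genes whose brightest probe set followed that of Rela most closely over the 6 arrays were Cd164 (Pearson r = 0.9993), Mcm4 (0.9958), Lpcat3 (0.9953), Iqgap1 (0.9951) and Gmcl1 (0.9949). In all, 290 genes had r above 0.95 with Rela. These points are 2 groups of 3 arrays on one normalization, so the values describe the difference between groups as much as the replicates. For Nfkbia the closest were Ldhd (0.9955), Pabpc5 (0.9952), Actb (0.9947), Krtap4-7 (0.9926) and 1810044D09Rik (0.9914), whose log2 fold changes lay between -0.19 and -0.05.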

How the data were processed

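Each array's deposited table holds log2 signals by probe set. The authors computed them with RMA, as named (without a version) per the submitters' processing notes; 6 ug of total RNA was labelled, per the labels' protocols. Of 45101 probe sets, 64 controls were left out. Genes come from the platform annotation (34945 probe sets with 1 gene, 932 with several, 9160 unnamed). The RefSeq table held 18032 of 18193 genes, and 0 symbols differed.

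The comparison used limma 3.58.1 under R 4.3.3 (lmFit, eBayes, no block, two-sided), with p-values adjusted by Benjamini-Hochberg over 45037 probe sets at 0.05. Differences are plasmid minus vector. With 3 against 3 arrays an exact permutation test cannot go below 0.1 and was not used. Arrays give no read depth; their number limits precision. Replicate numbers were checked for pairing (below). The model was tested on simulated data, where it called 69.4% of changes of 1 log2 unit and 95.8% of changes of 2. Smaller changes were not simulated. From the call alone, a gene that was not called may still differ by 1 log2 unit or more, or by less.

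Members, lists, alternatives and array blocks were chosen with earlier results of these data known. Named beside the members are 3 reported miR-124 targets, up to 4 passing genes per list (or, where none passed, the 2 with the largest change), and the 5 genes most correlated with Rela and with Nfkbia. Outside this rule, the marker genes Tyrobp and Csf1r were named after their values were seen, and the 5 targets that hold the motif were named by their promoter letters.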

Additional observations from a re-analysis of the deposited data

How the results depend on the processing

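Of the 3 counts reported, that of pathway genes stayed at 0 of 120 in limma under all 16 alternatives run (109 genes after the filter on dim probe sets). At an unadjusted limma p under 0.05 stood 1 (without vector replicate 2) to 14 (replicate block) of these genes. In those settings 2311 and 6167 of all 45037 probe sets reached that level. The count of member probe sets stayed at 1 (Rela, lower) except with median centring (0), over the 6 refits without 1 array each (0 to 1) and without both replicate 1 arrays (0; chosen after seeing the data; Rela -1.34, adjusted p = 0.265). Where it was 0, limma gave 1 to 5 members at an unadjusted p under 0.05, beside 2311 to 4247 of all 45037 probe sets. The other 24 member probe sets passed in none of the alternatives. The count over all probe sets, 121 as reported, was 673 with the replicate block, 510 when blocked on array set (narrow or wide), 340 when blocked on poly-A level, 39 with median centring, 268 with quantile normalization, 229 with an intensity trend and robust estimation, 0 without both replicate 1 arrays (3730 at an unadjusted p under 0.05), and 0 to 356 without 1 array each (2311 to 4247 at an unadjusted p under 0.05 where it was 0). The cause was not tested. Deviations of same-numbered arrays correlated at 0.579, 0.0252 and 0.555. Plasmid replicates 1 and 3 thus correlated best with the vector array of their own number. Plasmid replicate 2 had its highest value with vector replicate 1 (0.0917), which is also near 0. The labels name no pairs, so the reported fit has no block, but these values do not settle whether the arrays were paired. With the replicate block Rela had the same -1.36 (limma adjusted p = 0.0106). Dim probe sets limit 2 members and 9 of 37 targets.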
